A study of Mus musculus with 12 samples.

Results

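Caspases and inflammasome genes were followed in mouse glomeruli, the filtering units of the kidney, in 2 inbred strains with and without an antibody-driven glomerulonephritis. The set held 9 genes, Casp4, Casp1, Casp8, Casp12, Nlrp3, Pycard, Il1b, Il18 and Gsdmd. They are 9 of 18193 genes named by the array's annotation and were chosen by symbol, with earlier results of these data known. Each gene was represented by the probe set with the highest mean over all arrays among those annotated with that symbol alone, and the 9 genes had 12 such probe sets in all.

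Each of the 4 groups held 3 female mice aged 8 to 10 weeks, with 1 Affymetrix array per mouse. The groups were 129S2SvPAs with anti-GBM glomerulonephritis (GN), 129S2SvPAs controls, C57BL6J with GN and C57BL6J controls. For GN, nephrotoxic serum was injected on days 0, 1 and 2 and glomeruli were sieved from the kidneys on day 4, with nylon meshes of 100 and 45 µm. The labels do not say what the controls were injected with, and they name no allele beyond the strain background. The titles and the treatment label mark the controls as such, but their description field carries the same text as that of the GN mice, so the grouping rests on the titles. This is a serum-transfer model in whole mice, and the labels name no transgene, Cre driver or clone.

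An inflammasome is a cytosolic platform in which a sensor such as Nlrp3 recruits the adaptor Pycard (ASC), which in turn activates caspase-1. Caspase-1 cleaves the precursors of interleukin 1 beta and interleukin 18, and it cleaves gasdermin D (Gsdmd), whose fragment forms pores in the cell membrane, a lytic death called pyroptosis. Mouse caspase-11, encoded by Casp4, senses cytosolic lipopolysaccharide and cleaves gasdermin D without Nlrp3. 129S2SvPAs belongs to a family of related strains known to carry a deletion at a splice site of Casp4 that leaves no functional protein. In kidney, Il18 is known to be made by tubule epithelium as well as by macrophages, and Il1b mainly by myeloid cells.

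Casp1, Casp4 and Casp12 lie next to each other on chromosome 9 in the RefSeq gene table, in that order. RefSeq upstream windows of the C57BL/6J reference (build GRCm38.p6) were available for 8 of the 9 genes, all but Gsdmd. The 250 bases before the start of Casp4 (the more upstream of 2 listed) and of its neighbour Casp12 are shown. They were chosen because Casp4 carried the largest difference between the strains among the 9 genes while Casp12 showed none past the threshold. The log2 signals of Casp12 lay between 2.91 and 3.62, near the median of the whole table, 3.03. A strain difference at Casp12 may therefore not have been visible. Capitals mark matches to the motifs searched, on either strand, and both windows are on the plus strand and read 5′ to 3′, Casp4 from chr9:5308599-5308848 and Casp12 from chr9:5345226-5345475.
Casp4: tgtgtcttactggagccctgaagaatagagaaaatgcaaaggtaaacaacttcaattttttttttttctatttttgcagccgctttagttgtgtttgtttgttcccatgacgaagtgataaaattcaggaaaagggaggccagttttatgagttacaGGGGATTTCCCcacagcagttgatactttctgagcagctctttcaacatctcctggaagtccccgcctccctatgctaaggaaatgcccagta
Casp12: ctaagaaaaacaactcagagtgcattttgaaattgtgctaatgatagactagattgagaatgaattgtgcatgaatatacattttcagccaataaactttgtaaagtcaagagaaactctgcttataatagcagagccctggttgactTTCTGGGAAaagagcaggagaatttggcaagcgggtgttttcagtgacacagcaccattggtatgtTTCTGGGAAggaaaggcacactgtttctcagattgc

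The capitals in the Casp4 window are overlapping matches to the degenerate NF-kB consensus, which 3.9% of all 32851 upstream windows hold. That consensus was put in place of a narrower form after the Casp4 window had been read. The capitals in the Casp12 window are a pair of matches to the gamma-activated site TTCNNNGAA, which 7.0% of windows hold. Of the other motifs, the core of the interferon-stimulated response element (3.0% of windows) and the AP-1 form TGANTCA (6.7%) had no match before any of the 8 genes. The PU.1 form GAGGAAGT (2.4%) matched before Pycard, and the NF-kB consensus also matched before 1 of the 2 starts of Nlrp3. A match is a description of the reference letters and not evidence of binding, and the 129S2SvPAs sequence was not used here.

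Values are log2 probe set signals between 1.12 and 15.02, and the median of the whole table, 3.03, lies in the dense lower range where a signal cannot be told from background. A probe set was tested when it exceeded 3.03 on at least 3 arrays, which 11920 of 18193 genes and 8 of the 9 members did, all but Nlrp3. No detection calls were used, and the number of arrays limits the precision. Podocyte markers had a mean log2 signal of 7.05 to 9.09 per array, glomerular endothelial markers 7.20 to 9.42, and proximal tubule markers 11.05 to 11.99, all well above the table median on every array. Replicate 1 of 129S2SvPAs GN stood apart from its group, with a mean Pearson's r of 0.974 to the other 2 arrays, where all other arrays had 0.983 to 0.990 (across genes, which are not independent replicates). In bulk tissue, fewer cells of a type and less RNA per cell cannot be told apart.

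**Figure D1:**
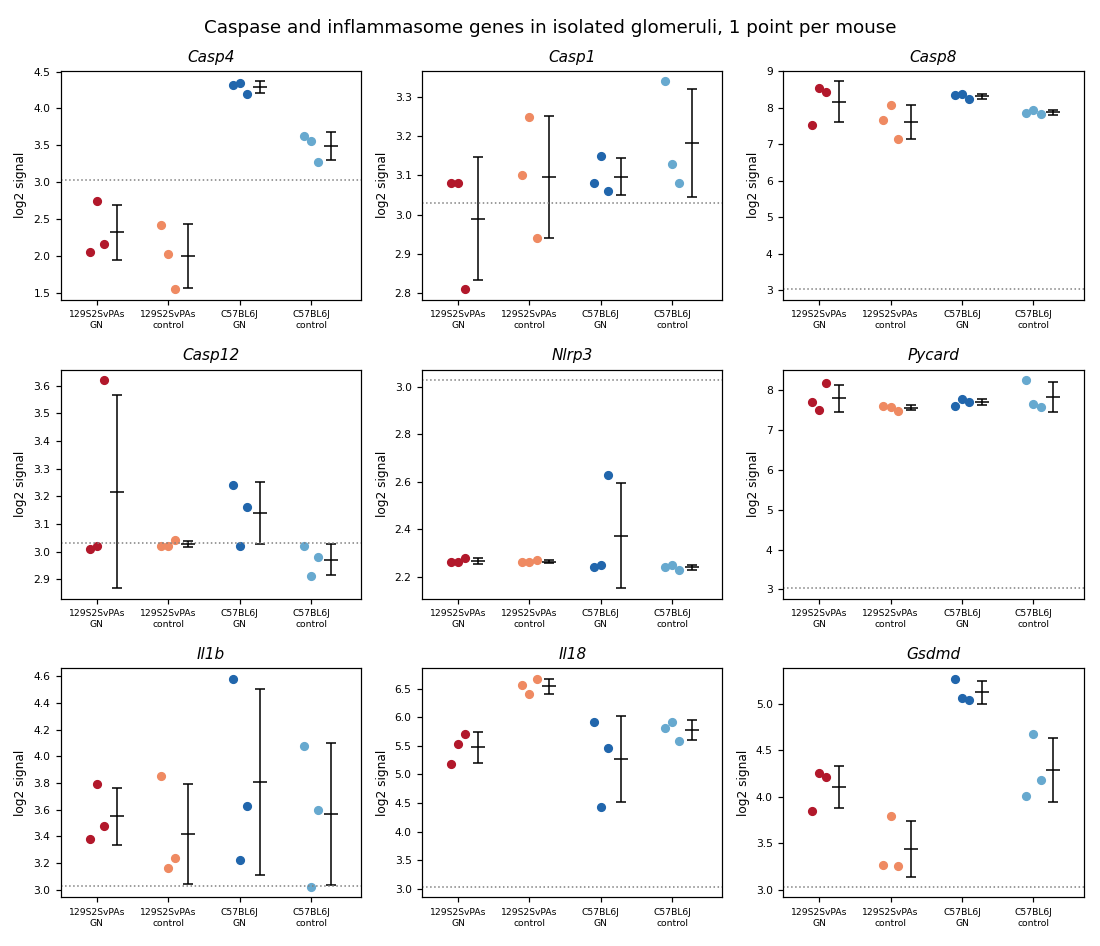
Log2 probe set signal (y axis, scaled per gene) of the 9 genes in each mouse (points) by group, with group mean and SD (black, n = 3). The dotted line is the table median of 3.03. Casp4 lay below it on all 6 129S2SvPAs arrays and above it on all 6 C57BL6J arrays, and Nlrp3 lay below it on all 12.

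Among the 9 genes the strain difference was largest at Casp4, which was lower in 129S2SvPAs in both controls and GN. Gsdmd was lower in 129S2SvPAs as well and rose with GN in both strains. Il18 fell with GN in 129S2SvPAs. The other 6 genes, Casp1, Casp8, Casp12, Nlrp3, Pycard and Il1b, had no difference past the threshold, an adjusted p of 0.05 in limma (Benjamini-Hochberg over all genes tested). Casp8 and Pycard were among them at high signal, whereas Casp1, Casp12 and Nlrp3 were at or near the table median or under it, where a change in RNA may not be visible.

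The strain comparison in healthy mice asked which of the genes differed between 129S2SvPAs and C57BL6J before disease, and 2 of the 8 tested members were called, both lower in 129S2SvPAs, where 8.43% of all genes were called and 5.11% were called lower. The signal of Casp4 was 2.42, 2.03 and 1.55 in 129S2SvPAs controls, against 3.63, 3.56 and 3.27 in C57BL6J controls. The groups did not overlap, which was so for 31.6% of all genes, and each 129S2SvPAs value was under the table median. The difference was -1.49 (SE 0.23, adjusted p = 0.00252 in limma), with a 95% confidence interval of -1.99 to -0.98. On the linear scale the signal in 129S2SvPAs controls was 0.357 of that in C57BL6J controls, and since the 129S2SvPAs values lay in the background range the ratio may understate the difference.

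In GN the gap at Casp4 was -1.97 (SE 0.23, adjusted p = 0.00040 in limma), with an interval of -2.47 to -1.46. The signals were 2.06, 2.75 and 2.16 in 129S2SvPAs GN, against 4.32, 4.35 and 4.20 in C57BL6J GN. All 3 challenged 129S2SvPAs mice were thus below all 6 C57BL6J mice, challenged or not. Between the GN groups alone, 27.9% of all genes showed no overlap. Only 120 genes had a smaller p in this comparison, in which 2 of 8 tested members were called lower, where 8.38% of all genes were called and 4.89% were called lower. Casp4 passed the filter on dim probe sets through the C57BL6J arrays alone, so its place among the tested genes was not independent of the strain. Without that filter, the adjusted p in limma was 0.0088 in controls and 0.0019 in GN. The array holds 1 probe set annotated with Casp4 alone, and whether sequence differences between the strains affect its hybridisation was not tested.

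The response of Casp4 to GN was 0.80 in C57BL6J (SE 0.23, adjusted p = 0.0626 in limma), which missed the threshold. The groups did not overlap, which was so for 29.1% of all genes. In 129S2SvPAs the response was 0.32 (SE 0.23, adjusted p = 0.375 in limma), and the groups overlapped. The difference of the responses was -0.48 (SE 0.32, adjusted p = 0.680 in limma), with an interval of -1.20 to 0.24, so unequal responses were not shown. From high to low, the group means ± SD ran from C57BL6J GN at 4.29 ± 0.08, C57BL6J controls at 3.49 ± 0.19 and 129S2SvPAs GN at 2.32 ± 0.37 to 129S2SvPAs controls at 2.00 ± 0.44 (n = 3 each). Only the last neighbours in that order overlapped. The difference in C57BL6J had an adjusted p of 0.0149 in limma in a fit of the C57BL6J arrays alone and of 0.0452 with the replicate number as a block, so whether it was called depended on the fit. Between these groups the deviations of same-numbered arrays correlated by 0.21 to 0.33 (across genes).

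Gsdmd, the pore-forming substrate of caspase-1 and caspase-11, rose in both strains. It stood at 3.85, 4.26 and 4.21 in 129S2SvPAs GN, against 3.27, 3.79 and 3.26 in 129S2SvPAs controls. In C57BL6J it stood at 5.27, 5.06 and 5.04 in GN, against 4.01, 4.68 and 4.18 in controls. In neither strain did the GN and control arrays overlap, which was so for 32.5% of all genes in 129S2SvPAs and 29.1% in C57BL6J. The rise was 0.67 in 129S2SvPAs (SE 0.20, adjusted p = 0.0403 in limma) and 0.83 in C57BL6J (SE 0.20, adjusted p = 0.0330 in limma), or 1.59-fold and 1.78-fold on the linear scale. The difference between the rises was -0.17 (interval -0.80 to 0.47, adjusted p = 0.911 in limma).

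Both rises of Gsdmd were close to the threshold. Without the filter on dim probe sets they had an adjusted p of 0.0741 in 129S2SvPAs and 0.0656 in C57BL6J in limma. In a fit of the 129S2SvPAs arrays alone the rise there had an adjusted p of 0.0871 in limma. Leaving out single arrays ended the call in 129S2SvPAs in 8 of 12 cases, namely each C57BL6J GN replicate, C57BL6J control replicate 3, 129S2SvPAs GN replicates 2 and 3 and 129S2SvPAs control replicates 1 and 3, with values from 0.58 to 0.67. In C57BL6J the call ended in 5 cases, without any of the GN replicates or control replicates 1 or 3, with values from 0.69 to 0.88. The direction was the same under every alternative run.

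Gsdmd was also lower in 129S2SvPAs than in C57BL6J, by -0.85 in controls (SE 0.20, adjusted p = 0.0272 in limma) and -1.02 in GN (SE 0.20, adjusted p = 0.0110 in limma). Groups did not overlap in either comparison, which was so for 31.6% of all genes in controls and 27.9% in GN. The highest 129S2SvPAs GN value, 4.26, lay within the range of the C57BL6J controls, 4.01 to 4.68, so that the middle groups in the order of means, C57BL6J controls at 4.29 ± 0.35 and 129S2SvPAs GN at 4.11 ± 0.22 (SD, n = 3), overlapped. The difference in GN was called under all 20 alternatives in which Gsdmd was tested, and the one in controls under 14 of 20. The calls lost in controls were those without the filter (adjusted p = 0.0553 in limma), with only the groups compared (0.0947), without 129S2SvPAs control replicate 1 or 3, and without C57BL6J control replicate 2 or 3. Gsdmd, like Casp4, has 1 probe set annotated with it alone. Whether sequence differences between the strains affect its hybridisation was not tested.

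**Figure D2:**
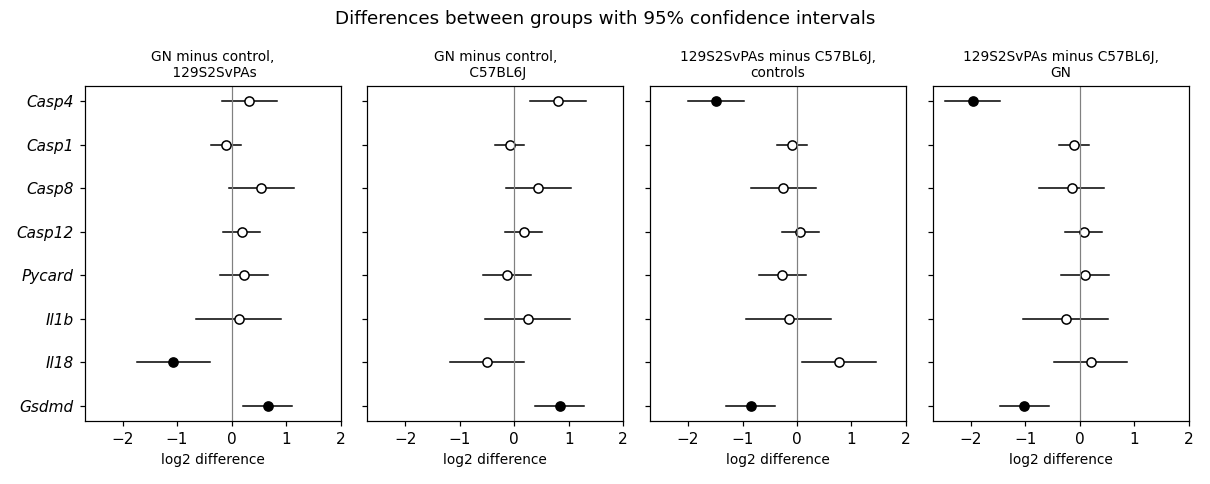
Log2 differences (x axis) of the 8 tested genes with 95% confidence intervals in 4 comparisons. Filled points passed an adjusted p of 0.05 in limma. Casp4 and Gsdmd were lower in 129S2SvPAs in both strain comparisons, at -1.49 and -0.85 in controls and -1.97 and -1.02 in GN.

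Il18, a cytokine of the interleukin 1 family that is released after cleavage by caspase-1, moved the other way. Its signal was 5.18, 5.54 and 5.70 in 129S2SvPAs GN, against 6.56, 6.40 and 6.66 in 129S2SvPAs controls. The groups did not overlap, which was so for 32.5% of all genes. Il18 fell by 1.07 on the log2 scale (SE 0.305, adjusted p = 0.0310 in limma), to 0.477 of the control signal. With Gsdmd, 2 of 8 tested members were called in the 129S2SvPAs response, where 20.3% of all genes were called, 10.6% higher and 9.77% lower.

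In C57BL6J, Il18 was at 5.91, 4.43 and 5.47 in GN, against 5.81, 5.92 and 5.58 in controls, and the groups overlapped. The difference was -0.50 (SE 0.305, adjusted p = 0.396 in limma), and it was spread by replicate 2 of GN, the lowest array of the 12. Without that array it was -0.08. In this strain's response Gsdmd was the 1 member called of 8 tested, where 7.09% of all genes were called and 4.78% were called higher. The responses of Il18 differed by -0.57 between the strains (interval -1.52 to 0.39, adjusted p = 0.726 in limma). Among controls Il18 was 0.77 higher in 129S2SvPAs (SE 0.305, adjusted p = 0.162 in limma) with no overlap, as for 31.6% of all genes. Among GN mice it was 0.20 higher (SE 0.305, adjusted p = 0.745 in limma). Among controls the adjusted p in limma was 0.0250 in a fit of the control arrays alone and 0.0278 without replicate 2 of C57BL6J GN. Without that array the difference among GN mice was -0.22, of the opposite sign.

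The fall of Il18 in 129S2SvPAs was lost from the calls without the filter (adjusted p = 0.0705 in limma), without replicate 1 or 2 of 129S2SvPAs GN, and without any of the 3 controls, with values from -0.92 to -1.14. Without replicate 1 of 129S2SvPAs GN, the array that stood apart, it was -0.92 (adjusted p = 0.0817 in limma). Markers of tubule segments moved with it. The 14 proximal tubule markers had a mean log2 signal per array of 11.05 to 11.20 in 129S2SvPAs GN and 11.85 to 11.94 in 129S2SvPAs controls, and 6 of 14 fell. The 10 markers of the distal nephron and collecting duct had 8.97 to 9.27 in GN and 9.88 to 10.03 in controls, and 4 of 10 fell and 1 rose. Over all genes, 9.77% were called lower and 10.6% higher in the 129S2SvPAs response. The part of the tubule content in the level of Il18 was not tested.

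Il1b, the other cytokine that caspase-1 activates, was near the table median with wide spread. It was at 3.38, 3.79 and 3.48 in 129S2SvPAs GN, against 3.85, 3.16 and 3.24 in 129S2SvPAs controls. In C57BL6J it was at 4.58, 3.22 and 3.63 in GN, against 4.08, 3.02 and 3.60 in controls. In each strain GN and control arrays overlapped over most of their range. The differences were 0.13 in 129S2SvPAs (interval -0.65 to 0.92) and 0.24 in C57BL6J (interval -0.54 to 1.03), so a change of up to about 1 in either strain was not excluded by these arrays. In replicates 1 of C57BL6J GN and of both control groups Il1b was the highest of its group.

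Casp8, the initiator caspase of death receptor signalling, had signals well above the table median. It was at 7.52, 8.55 and 8.42 in 129S2SvPAs GN, against 7.65, 8.07 and 7.14 in 129S2SvPAs controls. In C57BL6J it was at 8.34, 8.36 and 8.24 in GN, against 7.86, 7.94 and 7.82 in controls. The C57BL6J groups did not overlap, which was so for 29.1% of all genes. Each C57BL6J group had an SD of 0.06, whereas the SD was 0.56 in 129S2SvPAs GN and 0.47 in 129S2SvPAs controls.

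The difference at Casp8 was 0.54 in 129S2SvPAs (SE 0.27, adjusted p = 0.193 in limma) and 0.44 in C57BL6J (SE 0.27, adjusted p = 0.402 in limma). Both missed the threshold in the fit of all 4 groups, which share 1 estimate of the spread. In a fit of the C57BL6J arrays alone the value of 0.44 had an adjusted p of 0.0391 in limma. Without replicate 1 of 129S2SvPAs GN the value in 129S2SvPAs was 0.87 (adjusted p = 0.0174 in limma). Casp8 and Gsdmd were then the 2 members called in that strain, in place of Gsdmd and Il18. Between the strains Casp8 differed by -0.25 in controls (interval -0.85 to 0.35) and by -0.15 in GN (interval -0.75 to 0.45).

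Pycard, the adaptor that links sensors to caspase-1, was well above the table median in every mouse. It was at 7.69, 7.51 and 8.17 in 129S2SvPAs GN, against 7.61, 7.58 and 7.48 in 129S2SvPAs controls. In C57BL6J it was at 7.61, 7.77 and 7.70 in GN, against 8.25, 7.64 and 7.58 in controls. The groups overlapped in all comparisons. The interval of the difference was -0.20 to 0.67 in 129S2SvPAs and -0.57 to 0.31 in C57BL6J, so changes of more than about 0.7 in either direction lay outside it. A second probe set of Pycard was flat, between 3.38 and 3.50 on all 12 arrays, and the other lay at 2.02 to 2.22.

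Casp1 and Casp12 lay around the table median. Casp1, the caspase of the canonical inflammasome, was at 3.08, 3.08 and 2.81 in 129S2SvPAs GN, against 3.10, 3.25 and 2.94 in 129S2SvPAs controls, and at 3.08, 3.15 and 3.06 in C57BL6J GN, against 3.34, 3.13 and 3.08 in C57BL6J controls. Its differences ran from -0.11 to -0.09 over the 4 comparisons of groups. Casp12, a caspase of the same chromosome 9 cluster with a role in endoplasmic reticulum stress reported in mice, lay between 2.91 and 3.62, with the highest value in replicate 3 of 129S2SvPAs GN, and its other probe set between 2.80 and 3.41. The sign of its GN response differed between the probe sets, at 0.19 and -0.03 in 129S2SvPAs and 0.17 and -0.08 in C57BL6J. Nlrp3, the sensor, was at 2.23 to 2.28 on 11 arrays and at 2.63 in replicate 3 of C57BL6J GN, all under the table median.

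Markers of leukocytes, in which several of the 9 genes are known to be expressed, also differed between the strains. The 12 pan-leukocyte markers had a mean log2 signal per array of 4.49 to 4.82 in 129S2SvPAs GN, 4.60 to 5.60 in 129S2SvPAs controls, 5.75 to 6.50 in C57BL6J GN and 5.56 to 6.43 in C57BL6J controls. In GN 8 of the 11 tested were lower in 129S2SvPAs, among them Ptprc (CD45) at -1.97 (SE 0.35, adjusted p = 0.00537 in limma), and in controls 2 of 11 were lower. Over all genes, 4.89% were called lower in GN and 5.11% in controls. With GN itself, none of the 11 passed in C57BL6J, where 2 had an unadjusted p under 0.05, and 1 fell in 129S2SvPAs. Of 14 macrophage markers 3, Itgam, C1qc and Fcgr1, were under the table median on all arrays, as were 6 of 9 neutrophil markers. Of the others, Csf1r was lower in 129S2SvPAs GN than in C57BL6J GN by -1.49 and Fcgr4 by -1.15, the 2 called of 9 macrophage markers tested (adjusted p of 0.0207 and 0.0333 in limma). Fcgr4 passed the filter on dim probe sets through the C57BL6J GN arrays alone, at 4.69, 3.25 and 3.46. Its calls were thus not independent of the difference. The neutrophil markers S100a8 and S100a9 were lower in 129S2SvPAs controls than in C57BL6J controls by -2.23 and -2.48, the 2 called of 3 tested (adjusted p of 0.0204 and 0.0198 in limma). The mean of the 7 podocyte markers was 7.05 to 7.81 in the 129S2SvPAs arrays and 8.04 to 9.09 in the C57BL6J arrays. The part of these marker differences in the levels of Casp4 and Gsdmd was not tested. In the GN response within C57BL6J, where Gsdmd rose, the leukocyte ranges of GN and control arrays overlapped, and 1 of 9 macrophage markers, Fcgr4, rose by 1.11 (adjusted p = 0.0446 in limma). This call has the limit given above for Fcgr4. Markers of mesangium and platelets rose with GN beside Gsdmd, 4 of 8 and 2 of 5 tested in 129S2SvPAs and 3 of 8 and 3 of 5 in C57BL6J. Beside these counts and the endothelial ones below, 10.6% of all genes were called higher in 129S2SvPAs and 4.78% in C57BL6J. Of the platelet markers called in C57BL6J, Gp9 passed the filter through the C57BL6J GN arrays alone (3.47, 3.89 and 3.32), with the same limit. The 7 platelet markers had a mean of 3.77 to 4.16 in 129S2SvPAs GN and 2.69 to 2.71 in 129S2SvPAs controls, and of 4.39 to 5.09 in C57BL6J GN and 2.83 to 3.35 in C57BL6J controls, and their part in the rise of Gsdmd was not tested. Of 10 glomerular endothelial markers, 4 rose and 1 fell in 129S2SvPAs, with Pecam1 at 2.67, Robo4 at 2.45, Plvap at 2.19, Cdh5 at 1.71 and Ehd3 at -2.56, and 1 rose and 1 fell in C57BL6J, with Robo4 at 1.09 and Ehd3 at -1.94. Pecam1 (-1.49) and Robo4 (-1.56) were lower in 129S2SvPAs controls than in C57BL6J controls, and Ehd3 (-1.85) was lower in 129S2SvPAs GN than in C57BL6J GN. The part of the endothelial markers in the levels of Gsdmd and Casp4 was not tested either. The markers in these sentences were chosen after their values were seen.

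**Figure D3:**
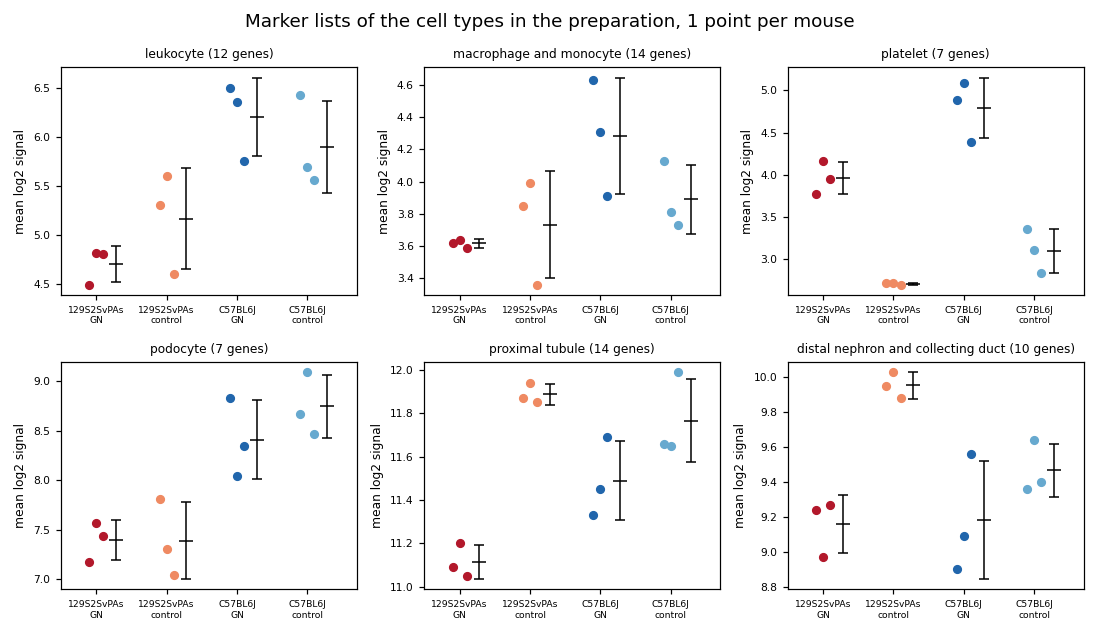
Mean log2 signal (y axis) of 6 marker lists in each mouse (points) by group, with group mean and SD (black, n = 3). Leukocyte markers were at 4.49 to 4.82 in 129S2SvPAs GN, below all C57BL6J arrays, and the distal nephron list was highest in 129S2SvPAs controls, at 9.88 to 10.03.

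The wider pathway was read from 5 lists of 107 genes in all. Of the inflammasome sensors and their activators, 22 of 30 had a probe set and 16 were tested. With GN, 4 rose and 1 fell in 129S2SvPAs, with a median difference of 0.05 over the list beside 0.00 over all genes, and 1 rose in C57BL6J, with 0.14 beside -0.03. Counts in this and the other lists stand against 10.6% of all genes called higher in 129S2SvPAs and 4.78% in C57BL6J, so that more calls in 129S2SvPAs are no result about a list. The guanylate-binding proteins, interferon-induced GTPases that help caspase-11 reach lipopolysaccharide, rose in 129S2SvPAs, Gbp2 by 1.39 (SE 0.34), Gbp3 by 1.25 (SE 0.27) and Gbp7 by 0.79 (SE 0.20). These genes began from a lower level in 129S2SvPAs, since in controls Gbp2 was lower by -2.08 (SE 0.34), Gbp3 by -1.44 (SE 0.27) and Gbp7 by -1.11 (SE 0.20) than in C57BL6J. Gbp2 was at 6.32 ± 0.42 in 129S2SvPAs GN, 4.93 ± 0.66 in 129S2SvPAs controls, 7.52 ± 0.42 in C57BL6J GN and 7.01 ± 0.29 in C57BL6J controls (SD, n = 3). The guanylate-binding proteins are close paralogs and their probe sets may share signal.

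The sensor Nlrp6, known from epithelium, fell by 1.55 on the log2 scale in 129S2SvPAs (SE 0.41, adjusted p = 0.0229 in limma). Nlrc5, a regulator of MHC class I genes of the same receptor family, rose by 1.09 in C57BL6J (SE 0.17, adjusted p = 0.00326 in limma), with 4.09, 3.32 and 3.84 in GN, against 2.74, 2.72 and 2.52 in controls. In 129S2SvPAs it stayed between 2.32 and 2.54 in all 6 mice, under the table median, and the responses differed by -1.13 (SE 0.24, adjusted p = 0.0891 in limma). Nlrc5 passed the filter through the 3 C57BL6J GN arrays alone, so its calls were not independent of the difference, and all other groups lay in the background range. Without the filter its adjusted p in limma was 0.0085 for the response in C57BL6J and 0.0020 between the strains in GN. Within GN, Nlrc5 was lower in 129S2SvPAs by -1.37 (SE 0.17) and Naip2 by -1.11 (SE 0.24). P2rx7, the ATP-gated channel that triggers Nlrp3, was lower by -1.71 (SE 0.41). In 129S2SvPAs GN, Naip2 was at 2.80, 2.99 and 2.81, under the table median. The calls of Nlrp6 and P2rx7 were lost without the filter, at an adjusted p of 0.0583 and 0.0678 in limma. In both strain comparisons 3 of the 16 passed, all lower in 129S2SvPAs. Over all genes, 5.11% were called lower in controls and 4.89% in GN.

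Of the interleukin 1 family ligands, receptors and signalling genes, 14 of 22 were tested. The receptor Il1r1 was the 1 that rose in C57BL6J, by 0.99 (SE 0.24, adjusted p = 0.0347 in limma), and Tab2, an adaptor of the kinase TAK1, was the 1 that rose in 129S2SvPAs, by 0.33 (SE 0.10, adjusted p = 0.0460 in limma). Each is 7.14% of the genes tested, near the shares over all genes, and Il1r1 lost its call without the filter (adjusted p = 0.0752 in limma). In the strain comparisons none of the 14 passed in limma, and 0 in controls and 3 in GN had an unadjusted p under 0.05. Il1a and the receptor antagonist Il1rn did not pass the filter. Il1f6 did not pass either, with 2.44, 3.57 and 4.69 in 129S2SvPAs GN, against 2.38, 2.37 and 2.38 in controls. In C57BL6J it was at 2.32 to 2.36, and its differences were not tested.

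Of the apoptotic caspases and their regulators, 22 of 26 were tested, and with GN 6 (27.3%) rose in 129S2SvPAs and 3 (13.6%) in C57BL6J. The list's median was 0.08 in 129S2SvPAs beside 0.00 over all genes, and -0.01 in C57BL6J beside -0.03. None of the caspases of this list was among them, and Casp2, Casp6 and Casp9, which were chosen for mention after their values were seen, had adjusted p of 0.0749 to 0.919 in the GN responses in limma. The caspase inhibitor family genes Birc5 and Birc3 rose by 2.14 (SE 0.49) and 0.99 (SE 0.21) in 129S2SvPAs and by 3.09 (SE 0.49) and 0.85 (SE 0.21) in C57BL6J. Birc5 is also a gene of mitosis, and Birc3 in C57BL6J lost its call without the filter (adjusted p = 0.0665 in limma). Bcl2, which restrains apoptosis, rose by 0.42 (SE 0.11) in 129S2SvPAs and 0.51 (SE 0.11) in C57BL6J, and Apaf1, the scaffold that activates caspase-9, by 0.52 (SE 0.15) in 129S2SvPAs.

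Of the death receptor and necroptosis genes, 12 of 17 were tested. With GN 5 rose and 1 fell in 129S2SvPAs, where the list's median was 0.30 beside 0.00 over all genes, and 3 rose in C57BL6J, with 0.32 beside -0.03. The gene that fell was Tnfrsf21, at -0.95 (SE 0.27) in 129S2SvPAs. Tnfaip3 (A20), a feedback inhibitor of NF-kB that restrains cell death, rose by 2.20 (SE 0.31) in 129S2SvPAs and 3.02 (SE 0.31) in C57BL6J. Mlkl, the pore former of necroptosis, rose by 0.79 (SE 0.25) in 129S2SvPAs and by 1.35 (SE 0.25) in C57BL6J. It was at 4.13, 4.54 and 4.36 in 129S2SvPAs GN, against 3.63, 3.63 and 3.41 in 129S2SvPAs controls.

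Ripk3, the kinase that activates Mlkl, rose by 1.12 in C57BL6J (SE 0.13, adjusted p = 0.00061 in limma), with 3.79, 4.10 and 3.96 in GN, against 2.77, 2.95 and 2.76 in controls. It passed the filter through GN arrays alone, and without the filter the adjusted p in limma was 0.0014. In 129S2SvPAs it was at 3.04, 3.01 and 3.43 in GN, against 2.78, 2.78 and 2.79 in controls, near the table median. Within GN it was lower in 129S2SvPAs by -0.79 (SE 0.13), while the difference of the responses was -0.75 (SE 0.19, adjusted p = 0.148 in limma). Rises called in 129S2SvPAs were also those of Tnfrsf1a (TNF receptor 1) by 1.0 (SE 0.23), Tnfsf10 (TRAIL) by 0.98 (SE 0.23) and the adaptor Traf2 by 0.79 (SE 0.18).

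Of the other gasdermins and genes of membrane rupture or repair, 7 of 12 were tested, and with GN 4 rose in 129S2SvPAs and 2 in C57BL6J. Gsdme, the only gasdermin tested in this list, was not among them. Its differences were -0.24 in 129S2SvPAs and -0.20 in C57BL6J (adjusted p of 0.705 and 0.823 in limma). Gsdma did not pass the filter. The list's median was 0.71 in 129S2SvPAs beside 0.00 over all genes, and 0.19 in C57BL6J beside -0.03. The annexins Anxa2 and Anxa1, which bind membranes in a calcium-dependent way, rose by 2.80 (SE 0.23) and 2.61 (SE 0.30) in 129S2SvPAs and by 1.83 (SE 0.23) and 2.24 (SE 0.30) in C57BL6J. Ninj1, which ruptures the membrane after gasdermin pores have formed, rose by 0.71 in 129S2SvPAs (SE 0.14, adjusted p = 0.00460 in limma), with 11.01, 10.74 and 10.70 in GN, against 10.24, 9.96 and 10.13 in controls. Pdcd6ip (ALIX), a factor of membrane repair, rose by 0.89 (SE 0.16) in 129S2SvPAs. Over all 5 lists none of the genes passed in the difference of the responses in limma, where 8 had an unadjusted p under 0.05 and 0.562% of all genes were called.

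**Figure D4:**
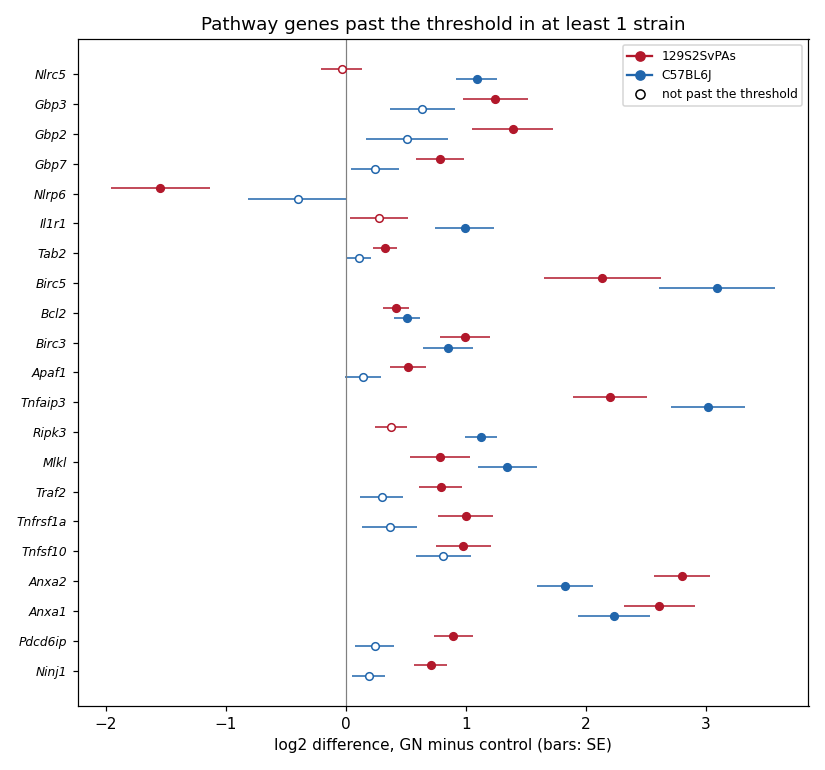
Log2 difference of GN minus control (x axis, bars SE) in 129S2SvPAs (red) and C57BL6J (blue). Shown are genes of the 5 lists named above that passed the threshold in the GN response of at least 1 strain. Only those with the lowest p per list and strain were drawn, up to the limit given for named genes under the processing. Bcl2l1, Bbc3 and Hsp90aa1, which rose in 129S2SvPAs, and Tnfrsf21, which fell there, also passed and are not drawn. Filled points passed an adjusted p of 0.05 in limma. Nlrc5, which passed the filter on dim probe sets through the C57BL6J GN arrays alone, was at 1.09 in C57BL6J, and Anxa1, Anxa2, Birc3, Birc5, Bcl2, Mlkl and Tnfaip3 rose in both strains.

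None of the 9 genes was called in the difference of the responses, and none of the 8 tested had an unadjusted p under 0.05 there. As a description over the 12 arrays, which fall into 4 groups, the genes whose pattern was most like that of Casp4 were Lta4h, Rps4l and Mylk. Gsdmd was most like Sorbs3, Hnrnph1 and Pxdn, and Il18 most like Xpot, Casr and Gcsh. Likeness was Pearson's r of the log2 values, which was 0.969 to 0.972 for the genes paired with Casp4, 0.957 to 0.964 for Gsdmd and 0.922 to 0.939 for Il18. Lta4h, for example, was at 8.73 ± 0.23 in 129S2SvPAs GN, 8.72 ± 0.21 in 129S2SvPAs controls, 9.62 ± 0.03 in C57BL6J GN and 9.32 ± 0.04 in C57BL6J controls (SD, n = 3). These genes were the nearest among all genes tested, and no function or control is read from the likeness.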

How the data were processed

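RNA of isolated glomeruli was measured on 12 Affymetrix arrays, 1 per mouse, in 4 groups of 3. The authors' deposited values are log2 probe set signals for 45037 probe sets. MAS5 and GCRMA are both named, per the submitters' processing notes, with no version or role. That the scale is log2 was judged from the range, and array medians of 2.99 to 3.06 show a common scale. Array dates and detection calls were not used. GEO's platform annotation gave 1 symbol to 34945 probe sets, several to 932 and none to 9160, and the last 2 kinds were left out. All 9 members matched the RefSeq gene table by Entrez identifier. In R 4.3.3, limma 3.58.1 fitted 1 mean per group over all 12 arrays, with empirical Bayes moderation (10.7 degrees of freedom). The 5 contrasts were GN minus control within each strain, the strain contrast 129S2SvPAs minus C57BL6J among controls and among GN mice, and the difference of the 2 GN responses, taken in the same direction. P-values were Benjamini-Hochberg adjusted over 11920 genes, and genes were called at an adjusted p under 0.05. Comparisons that share an array group are not independent. The fit was tested on simulated data. Replicate numbers were checked for pairing: deviations from group means of same-numbered arrays correlated by -0.38 to 0.33. All 3 pairs were over 0.1 between C57BL6J GN and its controls (0.21 to 0.33) and between the control groups (0.24 to 0.28), but not between the other groups, and the labels give the numbers no meaning, so the fit has no block and the blocked value stands beside the call it changed. The rule for named genes takes all members, up to 4 called genes with the lowest p per list and contrast, and the 3 genes most like each called member. The members and lists were chosen with earlier results of these data known. Figures were drawn with Python 3.11.15 and matplotlib 3.10.9.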

Additional observations from a re-analysis of the deposited data

How the results depend on the processing

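Casp4 was called lower in 129S2SvPAs under all 20 alternatives in which it was tested, at -1.70 to -1.26 in controls and -2.18 to -1.75 in GN, and no called value of the 9 genes changed sign. Of the values of single members, taken over all settings, 113 called values kept their call and 28 lost it, and 11 that were not called gained it. With a filter at the 75th percentile of the table, which Casp4 and Gsdmd do not pass, the members called were 1 in the 129S2SvPAs response (Il18, which passed that filter through the 129S2SvPAs controls alone), 0 in the C57BL6J response and 0 in each strain comparison. Without a filter they were 0 in both responses and 1 between controls. With a log2 change of at least 1 they were 1 in the 129S2SvPAs response, 0 in the C57BL6J response and 1 between controls. With only the groups compared they were 1 in 129S2SvPAs and 3 in C57BL6J, and with array weights 2 in C57BL6J. Same-numbered arrays deviated together in 2 of 6 pairs of groups. With the replicate block 2 members passed in C57BL6J, Casp4 (0.80, adjusted p = 0.0452 in limma) and Gsdmd, and 33 of all genes in the difference of responses; it changed no other call of a member. Leaving out single arrays gave 0 to 2 members in each response, 1 to 3 between controls, 2 in GN and 0 in the difference.

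Over all genes, array weights gave 3827 calls in the 129S2SvPAs response, 2022 in the C57BL6J response, 1601 between controls, 2256 in GN and 286 in the difference of responses, against 2424, 845, 1005, 999 and 67. A log2 change of at least 1 gave 1111, 467, 570 and 551 in the first 4. Only the groups compared gave 1415 in the 129S2SvPAs response and 578 in GN, and the 75th percentile filter 18 in the difference. Leaving out single arrays gave 1768 to 2649, 407 to 1141, 503 to 1288, 612 to 1117 and 15 to 136. The cause was not tested, except that the filters change the number of genes tested. Low signal limits Casp1, Casp12, Nlrp3, Il1b and Casp4. Casp4 was under the table median in 129S2SvPAs and near it in C57BL6J controls, at 3.27 to 3.63.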
